A study of Mus musculus with 6 samples.

Results

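The genes described here are 9 members of the poly(ADP-ribose) polymerase (PARP) family, *Parp1*, *Parp2*, *Parp3*, *Parp8*, *Parp9*, *Parp10*, *Parp11*, *Parp12* and *Parp14*, together with *Dtx3l*, whose protein is the partner of PARP9. They were found in the deposited table by gene name, and all 10 were present among 22248 genes and were among the 11687 genes tested. RNAseq was performed on bone-marrow-derived macrophages (BMDMs), cells grown from mouse bone marrow with macrophage colony-stimulating factor and here not stimulated further. The 3 control libraries came from *Lyz2cre* mice and the 3 CITED2-deficient libraries from *Cited2 fl/fl:Lyz2cre* mice, all on C57BL/6 and labelled postnatal week 10, whereas the methods of the study give a slightly younger age. The controls thus carry the Cre recombinase too, and both genotypes express it from *Lyz2*, a gene of macrophages, neutrophils and their precursors, so deletion can be incomplete and is not limited to macrophages. The comparison asks what loss of CITED2, a transcriptional co-regulator, does to these genes in resting macrophages.

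PARP enzymes take ADP-ribose from NAD and attach it to proteins, either as long chains, as PARP1 and PARP2 do at broken DNA, or as single units, as most other members do. PARP9, PARP10, PARP11, PARP12, PARP14 and DTX3L are known as products of interferon-stimulated genes and take part in antiviral defense and in tuning macrophage responses to interferon. Erasers such as PARG and the macrodomain hydrolases remove the mark again.

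*Cited2* was 71.7, 79.3 and 75.5 FPKM (fragments divided by transcript length and library size) in the control libraries and 9.27, 7.22 and 7.53 FPKM in the CITED2-deficient libraries, so every library matched its label. The depth recovered from the values was 17289284 to 18952078 fragments in control and 22583993 to 26100407 in CITED2-deficient libraries, and the 10 genes were each read from 302 to 21956 fragments per library. Of 8 macrophage markers, 1 was higher and 6 were lower in CITED2-deficient BMDMs, and their summed level was 5671 to 5724 FPKM in control and 5050 to 5160 FPKM in CITED2-deficient libraries. *Lyz2* itself fell from 31.3 to 9.75 FPKM. Summed markers of T cells, B cells, NK cells and dendritic cells were at most 3.29 FPKM in any library. T cell sums were 0.185 to 0.774 FPKM in control and 0.933 to 1.51 FPKM in CITED2-deficient libraries. Those of NK cells were 0.139 to 0.467 and 1.36 to 1.90 FPKM, and those of dendritic cells 0.763 to 1.03 and 1.75 to 2.00 FPKM. No marker of these 3 types passed the filter for testing. B cell sums overlapped. All 7 of the 9 fibroblast or stromal markers that were tested were higher, and their summed level was 53.8 to 63.3 FPKM in control and 593, 204 and 206 FPKM in CITED2-deficient replicates 1, 2 and 3. Of 6 neutrophil markers, 4 were lower, with sums of 499 to 543 FPKM in control and 382 to 472 FPKM in CITED2-deficient libraries. In RNA from whole cultures, fewer cells of a type and less RNA per cell cannot be told apart. The labels do not say whether each library came from a separate mouse or culture, so the p-values measure only the spread between these libraries.

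Of the 10 genes, 8 were higher and 1 was lower in CITED2-deficient BMDMs at an adjusted p under 0.05 (limma on log2(FPKM + 1), Benjamini-Hochberg adjustment over all genes tested). Over all genes tested, 16.7% were higher and 34.6% were lower by the same rule. The groups did not overlap for 7 genes that were higher, against 19.0% of all genes tested, and for 1 gene that was lower, against 40.9%. A rise of at least 2-fold past the threshold was found for 5 of the 10, against 3.72% of all genes tested. The median log2 fold change of the 10 was 0.80, beside a median of -0.10 over all genes tested. The summed level of the 10 genes was 406 ± 10.2 FPKM (SD, n = 3) in control and 723 ± 33.2 FPKM in CITED2-deficient BMDMs, and the sum of *Parp9*, *Parp14*, *Dtx3l*, *Parp12* and *Parp10* went from 196 ± 3.79 to 518 ± 26.8 FPKM.

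**Figure D1:**
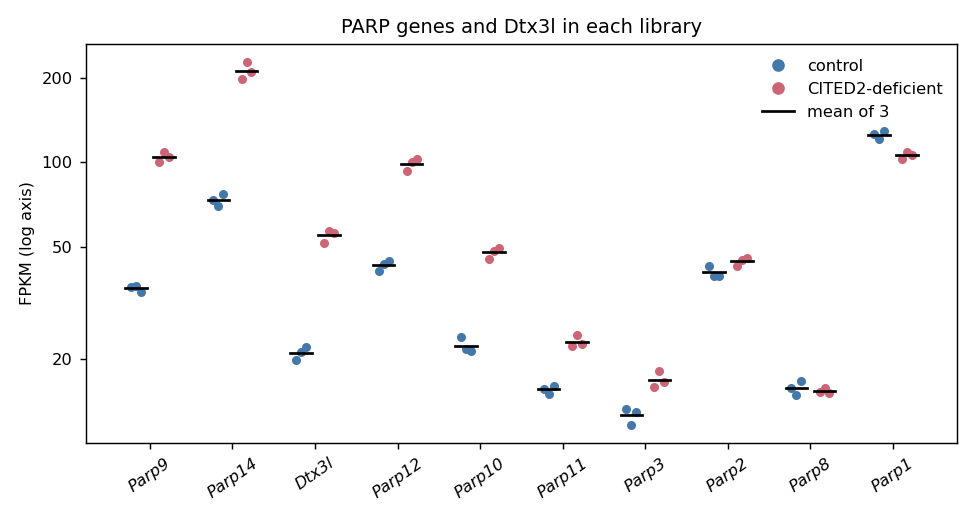
FPKM of *Dtx3l* and the 9 PARP genes in each library on a log axis, with 3 control points (blue), 3 CITED2-deficient points (red) and the mean of each group (bar). The groups stand apart for *Parp9*, *Parp14*, *Dtx3l*, *Parp12*, *Parp10*, *Parp11* and *Parp3* (higher) and for *Parp1* (lower, 125 to 106 FPKM), and overlap for *Parp2* and *Parp8*.

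Promoter sequence was compared because 6 of these genes are known interferon targets. RefSeq promoters (GRCm38.p6, 250 bases before and 50 bases after the start) were matched for 7 of the 10 genes, with 8 starts in all, and not for *Parp9*, *Parp10* or *Parp14*. The core of the interferon-stimulated response element, a site of the type I interferon response, was searched as GAAANNGAAA, and the gamma-activated sequence, a site of the interferon gamma response, as TTCNNNGAA, both on either strand. Over all 32851 promoters, 3.44% held the former and 8.30% the latter. Only 1 of the 8 starts held a match, the first start of *Parp11*, with both motifs once and partly overlapping. The sequences below show the 250 bases before the start, 5′ to 3′ on the strand of the gene. They are given for this start of *Parp11*, for *Parp12* and for *Parp1*, which fell. *Parp12* rose most among the matched genes whose window overlaps no other protein-coding gene. *Dtx3l* rose more, but its window lies within *Parp9*. Capitals mark the overlapping matches.
*Parp11*, chr6:127446590-127446839, + strand: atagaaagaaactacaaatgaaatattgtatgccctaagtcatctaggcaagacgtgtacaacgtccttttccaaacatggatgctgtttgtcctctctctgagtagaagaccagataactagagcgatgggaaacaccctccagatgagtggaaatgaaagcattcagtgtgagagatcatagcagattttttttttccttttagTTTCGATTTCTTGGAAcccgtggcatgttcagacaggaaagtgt
*Parp12*, chr6:39118350-39118599, - strand: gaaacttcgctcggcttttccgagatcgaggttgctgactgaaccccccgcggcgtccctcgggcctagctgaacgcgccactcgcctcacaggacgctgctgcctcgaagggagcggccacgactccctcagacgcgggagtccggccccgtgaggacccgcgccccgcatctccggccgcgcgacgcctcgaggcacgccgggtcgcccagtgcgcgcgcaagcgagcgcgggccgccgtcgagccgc
*Parp1*, chr1:180568641-180568890, + strand: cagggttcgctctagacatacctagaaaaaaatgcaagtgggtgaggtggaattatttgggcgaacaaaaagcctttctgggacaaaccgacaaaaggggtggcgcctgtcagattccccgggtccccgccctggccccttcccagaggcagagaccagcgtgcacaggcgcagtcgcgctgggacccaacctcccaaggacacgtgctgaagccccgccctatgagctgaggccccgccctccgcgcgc

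In *Parp11* the response element core reads TTTCGATTTC, which is the motif on the opposite strand, from base -44 to -35 before the start, and the gamma-activated sequence TTCTTGGAA runs from -37 to -29. This stretch held 40.4% G or C and 5 CG dinucleotides, whereas that of *Parp12* held 73.6% and 41, and that of *Parp1* 61.6% and 16. The median over all promoters was 52.4% and 6. *Dtx3l*, *Parp12*, *Parp3*, *Parp2*, *Parp8*, *Parp1* and the second start of *Parp11* had no match, which says only that these letters are not in this window. A match is a description of the sequence, and binding was not measured.

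The largest rises were those of *Parp9*, *Parp14* and *Dtx3l*, which lie side by side on chromosome 16. *Parp14* encodes a large enzyme with macrodomains that attaches single ADP-ribose units and is known to modulate STAT signaling in macrophages. It was 73.5, 69.8 and 77.2 FPKM in control libraries 1, 2 and 3 and 198, 227 and 209.9 FPKM in CITED2-deficient libraries 1, 2 and 3. The lowest CITED2-deficient library was thus well above the highest control library. The means of 73.5 ± 3.69 and 212 ± 14.5 FPKM (SD, n = 3) differed 2.88-fold, a log2 fold change of 1.51 (SE 0.05, limma adjusted p = 4.22e-08).

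*Parp9* encodes a macrodomain protein that has little transferase activity alone and works in a complex with DTX3L. It was 36.2, 36.4 and 34.8 FPKM in control and 99.9, 109 and 104 FPKM in CITED2-deficient libraries. The control libraries lay close together and none approached a CITED2-deficient library. The means were 35.8 ± 0.880 and 104 ± 4.31 FPKM, a 2.91-fold difference with a log2 fold change of 1.52 (SE 0.04, limma adjusted p = 6.97e-09). *Dtx3l*, a Deltex-type ubiquitin ligase, was 19.9, 21.2 and 22.1 FPKM in control and 51.8, 57.1 and 56.3 FPKM in CITED2-deficient libraries. Again the groups did not overlap. Its means of 21.1 ± 1.14 and 55.0 ± 2.87 FPKM differed 2.61-fold, a log2 fold change of 1.34 (SE 0.05, limma adjusted p = 9.89e-08).

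Since PARP9 and DTX3L act as a pair, their transcripts were compared as a ratio within each library. *Dtx3l* over *Parp9* was 0.549, 0.584 and 0.637 in control and 0.518, 0.526 and 0.540 in CITED2-deficient libraries. All CITED2-deficient ratios were below all control ratios, with means of 0.590 ± 0.0443 and 0.528 ± 0.0114, and the exact two-sided permutation test gave p = 0.1, the smallest value that 3 against 3 allows. *Parp14* over *Parp9* was 2.06 ± 0.152 in control and 2.03 ± 0.0555 in CITED2-deficient libraries (exact two-sided permutation p = 0.8), and these ratios overlapped. With *Parp2* over *Parp1*, given with those genes, 3 such ratios were computed, and none could pass a threshold of 0.05 in this design.

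A second group of single-unit transferases lies elsewhere in the genome. *Parp12* encodes a zinc finger enzyme that restricts viruses. It was 41.1, 43.5 and 44.6 FPKM in control and 93.1, 100.1 and 103 FPKM in CITED2-deficient libraries, without overlap. The means were 43.1 ± 1.76 and 98.6 ± 4.92 FPKM, 2.29-fold apart, with a log2 fold change of 1.18 (SE 0.05, limma adjusted p = 8.67e-08). *Parp10*, whose product is known to bind MYC and to attach single ADP-ribose units, was 23.9, 21.8 and 21.3 FPKM in control and 45.5, 48.6 and 49.8 FPKM in CITED2-deficient libraries. The CITED2-deficient group was again wholly above the controls. Its means of 22.3 ± 1.36 and 47.9 ± 2.19 FPKM differed 2.15-fold, a log2 fold change of 1.07 (SE 0.06, limma adjusted p = 4.91e-07).

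*Parp11*, an enzyme of the nuclear envelope, rose less. It was 15.7, 15.1 and 16.03 FPKM in control and 22.2, 24.3 and 22.7 FPKM in CITED2-deficient libraries. The groups stood apart with a smaller gap than for the genes above. The means of 15.6 ± 0.477 and 23.1 ± 1.08 FPKM differed 1.48-fold, a log2 fold change of 0.53 (SE 0.05, limma adjusted p = 3.85e-05). *Parp8*, a little-studied member, was 15.7, 14.9 and 16.8 FPKM in control and 15.3, 15.8 and 15.1 FPKM in CITED2-deficient libraries. These values overlapped, with means of 15.8 ± 0.948 and 15.4 ± 0.333 FPKM. Its log2 fold change of -0.03 had a 95% interval of -0.16 to 0.10 (limma adjusted p = 0.651), and its sign turned to 0.03 with quantile normalization and to 0.06 with median-ratio scaling, neither past the threshold. A change of the size seen for *Parp11* lay outside that interval.

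The enzymes of DNA repair moved in different directions, with log2 fold changes from -0.24 to 0.39. PARP1 is the main sensor of DNA breaks and makes most of the ADP-ribose chains of a cell, and *Parp1* was the only one of the 10 genes that fell past the threshold. It was 126, 121 and 129 FPKM in control and 103, 109 and 106 FPKM in CITED2-deficient libraries. No CITED2-deficient library reached the lowest control. The means were 125 ± 4.31 and 106 ± 2.98 FPKM, a ratio of 0.847, with a log2 fold change of -0.24 (SE 0.04, limma adjusted p = 0.000642). With median-ratio scaling, which brings the median of all genes from -0.10 to -0.01, its log2 fold change was -0.14 (limma adjusted p = 0.0144).

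*Parp2*, which shares the role of *Parp1* at single-strand breaks, was 42.9, 39.5 and 39.5 FPKM in control and 42.8, 44.9 and 45.7 FPKM in CITED2-deficient libraries. The highest control library lay within the CITED2-deficient range, so the groups overlapped. Its log2 fold change of 0.13 (SE 0.05, limma adjusted p = 0.0460) was past the threshold by little, and the adjusted p was above 0.05 in 8 of 16 alternatives, among them the replicate block with 0.0857 and 4 of the 6 fits that left out a library (replicate 2 or 3 of either group), with 0.107 to 0.136. *Parp2* over *Parp1* was 0.325 ± 0.0179 in control and 0.420 ± 0.00841 in CITED2-deficient libraries, without overlap (exact two-sided permutation p = 0.1). *Parp3*, a single-unit transferase of double-strand break repair, was 13.3, 11.7 and 13.0 FPKM in control and 15.9, 18.2 and 16.5 FPKM in CITED2-deficient libraries. All CITED2-deficient libraries were above the controls. Its means of 12.7 ± 0.867 and 16.9 ± 1.15 FPKM gave a log2 fold change of 0.39 (SE 0.07, limma adjusted p = 0.00158).

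**Figure D2:**
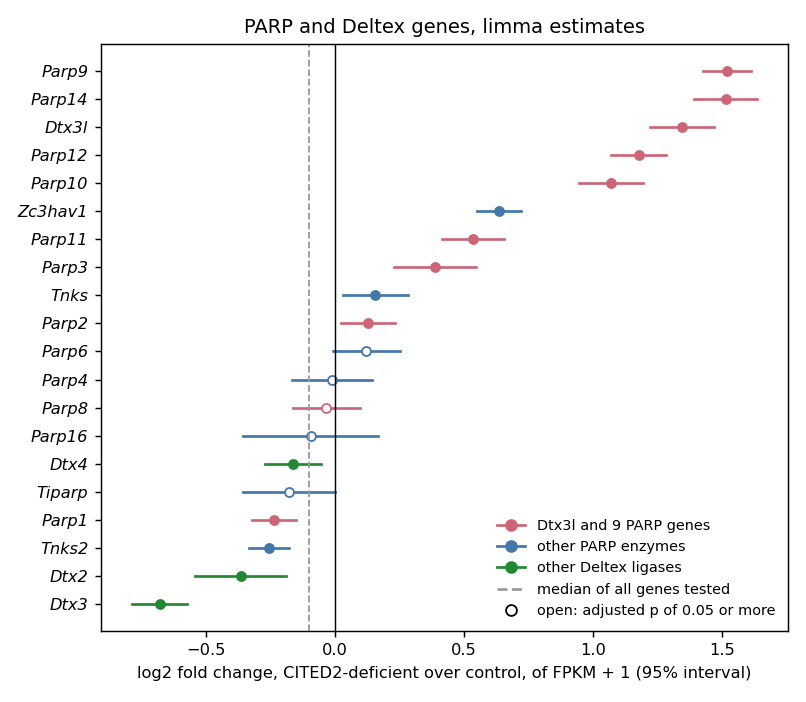
Log2 fold change of FPKM + 1 (CITED2-deficient over control) with its 95% interval for *Dtx3l* and the 9 PARP genes (red), 7 other PARP enzymes (blue) and 3 other Deltex ligases (green). Open points did not pass the threshold, and the dashed line marks the median of all genes tested, -0.10. The 5 largest changes, from *Parp9* at 1.52 to *Parp10* at 1.07, lie above *Zc3hav1* at 0.64.

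Ranked among all 11687 genes from the largest rise, *Parp9* was at 183, *Parp14* at 185, *Dtx3l* at 245, *Parp12* at 334 and *Parp10* at 390. These places lie in the top 1.57% to 3.34% of genes. *Parp11* was at 963, *Parp3* at 1243, *Parp2* at 2398 and *Parp8* at 4519. *Parp1* was at 8315.

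**Figure D3:**
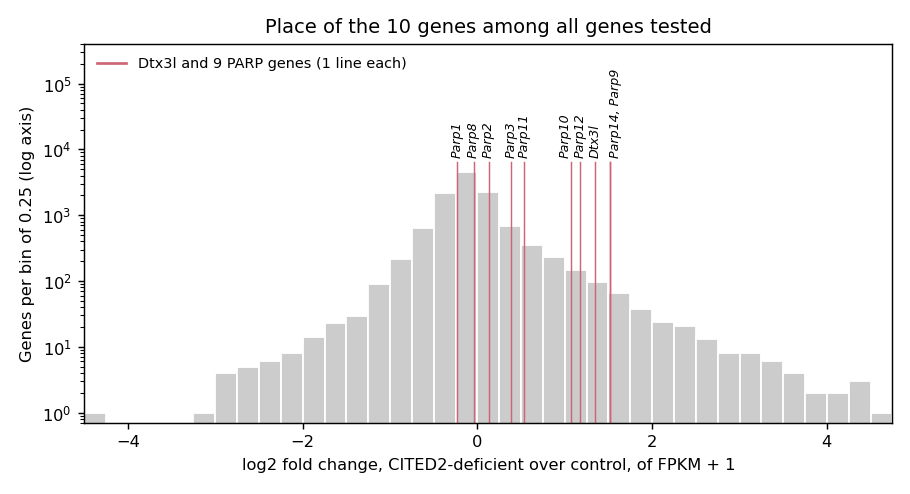
Number of genes tested (log axis) in bins of 0.25 of the log2 fold change of FPKM + 1, CITED2-deficient over control, with a red line for each of the 10 genes. *Parp14* and *Parp9* lie at 1.51 and 1.52 in the right tail, and *Parp1*, *Parp8* and *Parp2* lie at -0.24, -0.03 and 0.13 in the bulk of the distribution.

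In the order of mean levels per length, *Parp1* came first in control BMDMs, followed by *Parp14*, *Parp12*, *Parp2*, *Parp9*, *Parp10*, *Dtx3l*, *Parp8*, *Parp11* and *Parp3*. Neighbors whose libraries overlapped were *Parp12* with *Parp2*, *Parp10* with *Dtx3l*, and *Parp8* with *Parp11*. In CITED2-deficient BMDMs *Parp14* came first, followed by *Parp1*, *Parp9* and *Parp12*, which overlapped from one to the next, and then by *Dtx3l*, *Parp10*, *Parp2*, *Parp11*, *Parp3* and *Parp8*, of which *Parp10* and *Parp2* overlapped. The levels used here divide fragments by the mean length of all annotated transcripts of a gene, which for *Parp1* is 980 bases over 8 transcripts although its longest is 3873 bases. With the length of the longest transcript, an alternative chosen after seeing the data, *Parp14* led both groups at 39.7 and 114 on that scale, and *Parp1* was at place 2 in control and at place 6 in CITED2-deficient BMDMs, at 31.7 and 26.8. The ratio of plain FPKM between genotypes for 1 gene does not depend on this length.

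Within its group, CITED2-deficient replicate 1 was the lowest library for 9 of the 10, whereas it was the lowest for 30.1% of all genes tested. CITED2-deficient replicate 2 was the highest for 7 of the 10 and for 31.9% of all genes tested. In control, replicate 2 was the lowest for 6 of the 10 and for 39.3% of all genes tested. Control replicate 3 was the highest for 6 of the 10 and for 33.7% of all genes tested. CITED2-deficient replicate 1 was also the library with the highest stromal markers, at 593 FPKM in sum. Without it, 8 of the 10 genes were higher and 1 was lower, and the log2 fold changes were 1.56 for *Parp14*, 1.55 for *Parp9*, 1.39 for *Dtx3l* and -0.22 for *Parp1*. Since this library was the lowest for these genes, leaving it out could only enlarge the rises and reduce the fall. The part of the stromal transcripts in these differences was not tested.

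*Parp14* (chr16:35832874-35871544, - strand), *Dtx3l* (chr16:35926511-35939151, - strand) and *Parp9* (chr16:35938470-35972605, + strand; GRCm38, GENCODE vM21) span 139.7 kb. *Parp9* and *Dtx3l* start head to head and their exons share 458 bases on opposite strands. The libraries were made with a stranded kit, but no source used here says whether counting used the strand. Fragments from the shared bases could thus be assigned to either gene. *Parp14* shares 110 exonic bases on the same strand with *Gm49730*, which is not annotated as protein-coding, so strand would not separate these. Within 500 kb of *Parp9* the annotation has 20 protein-coding genes, of which 12 are in the table and 10 were tested. The 3 that rose were *Parp14*, *Dtx3l* and *Parp9*. The flanking genes, chosen after their values were seen, did not share the rise. *Kpna1*, a nuclear import receptor whose start lies 6145 bases beyond the end of *Parp9*, changed by -0.20 (SE 0.04, limma adjusted p = 0.00579), and *Hspbap1*, whose end lies 4397 bases from *Parp14*, by -0.36 (SE 0.12, limma adjusted p = 0.0333). *Dirc2* and *Wdr5b* were lower by -0.37 and -0.43 on the log2 scale, and *Pdia5*, *Fam162a* and *Ccdc58* did not pass the threshold, with values of 0.23, 0.07 and -0.09.

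**Figure D4:**
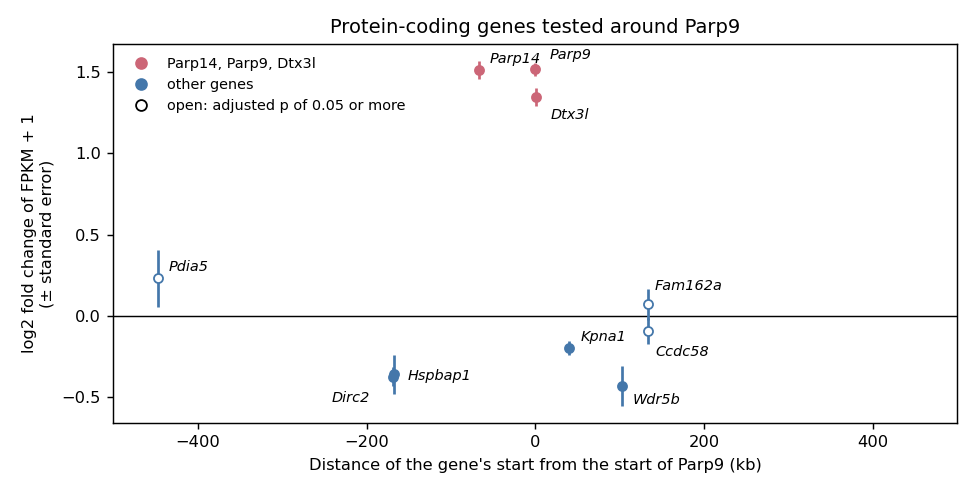
Log2 fold change of FPKM + 1 with its standard error for the 10 protein-coding genes tested around *Parp9*, against the distance of each gene's start from that of *Parp9* in kb. *Parp14*, *Parp9* and *Dtx3l* (red) lie at 1.34 to 1.52, and the other 7 genes (blue) lie between -0.43 and 0.23.

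Of the other genes, *Parp11* (chr6:127446840-127494261, + strand) and *Parp12* (chr6:39086410-39118349, - strand) share a chromosome but not a neighborhood. *Parp10* (chr15:76231174-76243441, - strand) shares 205 exonic bases on the same strand with *Plec*, a cytoskeletal linker, which rose from 31.7 to 41.7 FPKM, a log2 fold change of 0.39 (SE 0.04, limma adjusted p = 8.73e-05). *Parp3* (chr9:106470322-106476949, - strand) shares 20 bases with *Rrp9* on the opposite strand, which had a log2 fold change of 0.01 (limma adjusted p = 0.964). Reads in these shared bases are uncertain as to their gene. *Parp1* (chr1:180568924-180601254, + strand), *Parp2* (chr14:50807841-50821301, + strand) and *Parp8* (chr13:116854820-117025537, - strand) share no exonic base with another protein-coding gene.

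The genes whose pattern over the 6 libraries was nearest to the chromosome 16 genes were found by the Euclidean distance between centered log2(FPKM + 1) values, as a description over 6 libraries that also share a genotype difference. For *Parp9* these were *Ms4a6b* (distance 0.06), *Cd274*, which encodes the checkpoint ligand PD-L1 (0.07), and *Fcgr1*, the high-affinity IgG receptor (0.08). For *Parp14* they included *Gm5431* (0.05) and *Samd9l*, an antiviral factor (0.10). For *Dtx3l* they were *P2ry14* (0.07), a receptor for UDP-sugars, *Pnp* (0.07), which cleaves purine nucleosides, and *Tmcc3* (0.10). The pairs among the chromosome 16 genes were not the nearest of all. Among 11686 genes, *Parp14* was at place 16 from *Parp9*, *Dtx3l* at place 44 from *Parp9* and at place 37 from *Parp14*, and *Parp12* at place 24 from *Dtx3l*.

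The 7 other PARP enzymes were also tested. Of these, 2 were higher, 1 was lower and 4 did not pass the threshold. The shares over all genes tested were 16.7% higher and 34.6% lower. The median log2 fold change of the 7 was -0.01. *Zc3hav1*, the zinc finger antiviral protein also called PARP13, which lacks transferase activity, was 52.8, 53.5 and 55.2 FPKM in control and 82.4, 87.5 and 82.6 FPKM in CITED2-deficient libraries. The groups were well apart, with a log2 fold change of 0.64 (SE 0.04, limma adjusted p = 1.36e-06), larger than that of *Parp11*. The tankyrases, which mark proteins for ubiquitin-dependent decay, went opposite ways. *Tnks2* fell from 101 ± 3.20 to 84.9 ± 1.12 FPKM, a log2 fold change of -0.25 (SE 0.03, limma adjusted p = 0.000260). *Tnks* had a log2 fold change of 0.16 (SE 0.06, limma adjusted p = 0.0416) with overlapping libraries. It was past the threshold in 9 of 16 alternatives, but not when replicate 2 or 3 of either group was left out (limma adjusted p = 0.0961 to 0.129). *Parp6* had 0.12, and was past the threshold with quantile normalization (0.18) and median-ratio scaling (0.21). *Parp16* had -0.10 and *Tiparp*, an enzyme induced by the aryl hydrocarbon receptor, -0.18. Without control replicate 2, *Tiparp* was lower by -0.27 (limma adjusted p = 0.00723), and it was past the threshold in 2 of 16 alternatives. *Parp4*, the enzyme of vault particles, had -0.01, which turned to 0.05 with quantile normalization and to 0.08 with median-ratio scaling.

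The other Deltex ligases did not follow *Dtx3l*. All 3 that were tested were lower, where 34.6% of all genes tested were, and 2 were lower with either scaling. *Dtx1* was at most 0.235 FPKM in any library. *Dtx3* was 50.3, 53.3 and 52.9 FPKM in control and 33.1, 30.4 and 33.1 FPKM in CITED2-deficient libraries. It fell without overlap, by 0.68 on the log2 scale (SE 0.05, limma adjusted p = 3.56e-06). *Dtx2* had a log2 fold change of -0.37 (SE 0.08, limma adjusted p = 0.00389). *Dtx4* had -0.16 (SE 0.05, limma adjusted p = 0.0183), which was no longer past the threshold with quantile normalization (-0.10), with median-ratio scaling (-0.07), or without control replicate 1 (limma adjusted p = 0.0574) or CITED2-deficient replicate 1 (0.0557).

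Of 15 erasers and readers of ADP-ribose, 12 were tested, and 7 were lower by limma at an adjusted p under 0.05, where 34.6% of all genes tested were. Their median was -0.20, or -0.15 with quantile normalization and -0.11 with median-ratio scaling. The count of lower genes was 4 with quantile normalization and 2 with median-ratio scaling. *Macrod1*, a mitochondrial macrodomain hydrolase that removes single units, fell from 14.2 ± 1.35 to 7.79 ± 0.812 FPKM, a log2 fold change of -0.79 (SE 0.09, limma adjusted p = 9.42e-05). *Nudt16*, which trims ADP-ribose from proteins, fell by 0.35 on the log2 scale, and *Chd1l*, a chromatin remodeler that binds ADP-ribose chains, by 0.26, the latter past the threshold in 7 of 15 alternatives and lost, among others, with either scaling, with the replicate block and in 4 of the 6 fits that left out a library (replicate 1 or 3 of either group, limma adjusted p = 0.0770 to 0.136). Among 12 tested genes of the PARP1 cofactor and of strand break repair, 2 were higher and 1 was lower. The shares over all genes tested were 16.7% and 34.6%. *Timeless*, a replication fork protein that binds PARP1, rose from 2.30 ± 0.257 to 5.58 ± 0.225 FPKM, a log2 fold change of 1.00 (SE 0.10, limma adjusted p = 2.98e-05). *Pcna*, the sliding clamp, rose by 0.24 and *Lig1*, the replicative ligase, fell by 0.20, a call that was lost with either scaling and without control replicate 3 (limma adjusted p = 0.0553) or CITED2-deficient replicate 3 (0.0667).

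NAD is the substrate of all active PARP enzymes. Of 11 tested genes of its supply and use, 1 was higher and 5 were lower, where 16.7% and 34.6% of all genes tested were. With quantile normalization 3 were lower, and with median-ratio scaling 2. *Nampt*, the rate-limiting enzyme of NAD salvage, was 85.8, 86.6 and 90.6 FPKM in control and 148, 152 and 151 FPKM in CITED2-deficient libraries. It was higher in every CITED2-deficient library, with a log2 fold change of 0.77 (SE 0.03, limma adjusted p = 1.22e-07). *Cd38*, the ectoenzyme that breaks down NAD, fell by 0.77 (limma adjusted p = 0.000174), and *Naprt*, which makes NAD from nicotinic acid, by 0.74 (limma adjusted p = 3.53e-05) on the log2 scale. *Nmrk1*, the nicotinamide riboside kinase, had -0.29 (limma adjusted p = 0.0320), which was past the threshold in 8 of 15 alternatives and was lost, among others, with either scaling and in 4 of the 6 fits that left out a library (control 1 or 2, CITED2-deficient 1 or 3, limma adjusted p = 0.0680 to 0.101).

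Of 14 tested genes of the interferon signal chain, 8 were higher and 4 were lower, where 16.7% and 34.6% of all genes tested were. Their median log2 fold change was 0.48. Of the 4 receptor chains 3 were lower, and *Ifngr2* was at 0.02 without passing the threshold. *Ifngr1*, the ligand-binding chain of the interferon gamma receptor, fell from 250.1 ± 3.59 to 132 ± 3.88 FPKM, by 0.92 on the log2 scale (SE 0.03, limma adjusted p = 3.02e-08). *Ifnar2* and *Ifnar1*, the chains of the type I receptor, fell by 0.30 and 0.27. *Irf7*, the factor that amplifies type I interferon, rose from 73.7 ± 7.02 to 816 ± 35.5 FPKM, 11.1-fold, and *Stat2* from 59.3 ± 2.36 to 257 ± 12.1 FPKM, 4.34-fold. *Usp18*, which removes ISG15 and dampens the receptor, rose 5.10-fold from 21.9 ± 2.62 FPKM. *Ifnb1* was below the filter and was not tested. It was listed at 0 in every control library and at 0.262, 0.118 and 0.255 FPKM in the CITED2-deficient libraries. These values rest on only 5, 2 and 5 fragments, in libraries that were deeper than the controls. Whether they differ from control was not tested. *Ifng* was on this list but was not among the genes of the deposited table, so it could not be tested.

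**Figure D5:**
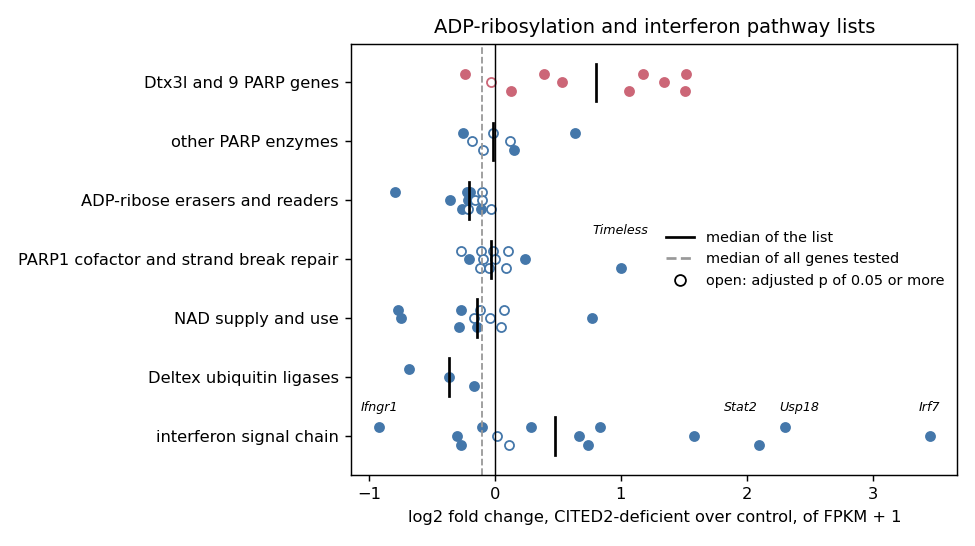
Log2 fold change of FPKM + 1, CITED2-deficient over control, for *Dtx3l* and the 9 PARP genes (red) and for the tested genes of 6 pathway lists (blue), with the median of each list (bar) and that of all genes tested (dashed line, -0.10). The median was 0.80 for the 10 genes, 0.48 for the interferon signal chain and between -0.37 and -0.01 for the other 5 lists.

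Over the 6 lists, 13 of 59 tested genes were higher and 21 were lower, where 16.7% and 34.6% of all genes tested were, and with median-ratio scaling 10 were lower. The 59 genes had a median of -0.10, the same as all genes tested. The same scaling changed the calls over all genes from 1950 higher and 4044 lower to 2624 higher and 2576 lower. The 10 genes had 8 higher and 1 lower with either scaling, with medians of 0.86 and 0.89.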

How the data were processed

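BMDM RNA was depleted of ribosomal RNA and made into 3 control and 3 CITED2-deficient stranded libraries. Per the labels and the methods, the authors aligned reads to mm10 (STAR) and deposited 1 FPKM value a gene and library, computed with Cuffdiff over GENCODE genes. No source used here gives tool versions or whether counting used strand. FPKM are relative to the total of a library, so a few strongly changed genes shift the rest.

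The 11687 of 22248 genes whose FPKM averaged 1 or more were tested on the log2(FPKM + 1) scale. The tool was limma 3.58.1 (R 4.3.3), using a variance trend, and genes were called at a Benjamini-Hochberg adjusted p under 0.05. Fold changes on this scale understate the change of low genes. Fragment numbers were recovered with the average length of a gene's GENCODE vM21 transcripts, cut to a whole number. Of 22239 matched genes, 96.1% were within 0.02 of whole numbers in all 6 libraries, and limma-voom on these fragments was an alternative. Within groups, libraries differed by more than sampling noise (chi-square of 2.22 to 5.85 per gene), so none was taken as 1 library deposited again, which does not show separate mice or cultures.

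The named genes were the 10 genes, *Cited2*, the other PARP and Deltex genes, up to 3 called rises and 3 called falls of greatest size in each other pathway list, and the 3 nearest genes by distance. Lists covered other PARP enzymes, erasers and readers, PARP1 cofactor and strand break repair, NAD, Deltex ligases, the interferon signal chain and cell type markers. A gene that falls under this rule is not reported here. The genes and lists were chosen with earlier results of these data known. The fit was tested on simulated data. Alternatives changed the pseudocount (0.1, 0.5), the filter (none, 5), the scaling, the trend, the weights, a replicate block, each library and a fold of at least 2. Ratios were compared with exact permutation tests in Python 3.11.15 with scipy 1.17.1.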

Additional observations from a re-analysis of the deposited data

How the results depend on the processing

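The 10 genes gave 160 values under the alternatives, of which 149 kept their direction and side of the threshold, 8 lost the call (all *Parp2*, with log2 fold changes of 0.11 to 0.13) and 3 changed sign (all *Parp8*, never past the threshold). The counts of the 10 genes were 7 to 8 higher and 1 lower over the fits that left out 1 library. A fold change of at least 2 left 5 higher and 0 lower among the 10, and 4 higher and 0 lower among the pathway genes. The fold was taken on the log2(FPKM + 1) scale, so *Timeless*, at 2.43-fold in plain FPKM, was not counted. Median-ratio scaling left 10 pathway genes lower in place of 21. *Parp8* had 0.033 with quantile normalization and 0.057 with median-ratio scaling, and -0.07 to 0.01 without 1 library each (-0.0735 to 0.00774). *Parp4* had 0.055 and 0.079 with the same scalings, and -0.0665 to 0.0441 without 1 library each. Without 1 library each, the pathway genes were 12 to 13 higher and 16 to 21 lower.

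With the replicate block, 7 of the 10 genes were higher and 1 was lower, and *Parp2* was not past the threshold (limma adjusted p = 0.0857). No source used here says that the numbers pair the libraries. Same-numbered deviations correlated at 0.0138, 0.00784 and 0.0402, and different-numbered ones at -0.0521 to 0.0354. Such low values cannot tell whether same-numbered libraries were prepared together. The length used for FPKM sets the order of levels between genes, and with the longest transcript 6 of 10 places changed in control and 7 of 10 in CITED2-deficient BMDMs. Groups of 3 limit ratios to an exact p of at least 0.1.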
